A study of Mus musculus with 13 samples.

Results

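The 34 genes described here are type I interferon-stimulated genes of the mouse, taken by symbol from a list of names. All 34 were found among the 22609 genes of each of the 2 deposited tables, and none was absent. RNA sequencing had been carried out on 13 libraries from C57BL/6 mice, either wild type (WT) or described by the submitters as a fat-specific PD-L1 knockout (KO). Visceral fat, taken after feeding on a diet the labels call HFD, gave 3 WT and 4 KO libraries. Transplanted E0771 mammary tumours, grown from a mouse mammary cancer cell line, gave 3 libraries from each kind of host. The tumour cells themselves carry no knockout in these labels, so in the tumours "KO" names the host. The promoter that drives deletion in fat and the age of the mice are not given in the sources used here. The labels do not say whether each numbered replicate is a separate mouse, so p-values here cover only the differences among the sequenced libraries.

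Type I interferons, the interferon alpha and beta family, bind the receptor IFNAR1-IFNAR2 on nearly every cell and activate the kinases JAK1 and TYK2. These phosphorylate transcription factors such as STAT2, which joins IRF9 to bind the interferon-stimulated response element in the promoters of the genes studied here. The products sense foreign nucleic acid, block translation or degrade RNA, modify proteins with the ubiquitin-like protein ISG15, and amplify or shut off the signal. In obese fat and in tumours, interferon-stimulated genes are expressed by immune cells as well as by the tissue's own cells.

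The promoters were searched for that element. RefSeq promoter windows on GRCm38.p6 (mm10), from 250 bases before to 50 bases after the annotated gene start, were matched by symbol for 24 of the 34 genes. The others had no window and were not searched: Dhx58, Ifi27l2a, Mx1, Mx2, Oas2, Parp14, Parp9, Rtp4, Usp18 and Zbp1. The core of the element, GAAA followed by any 2 bases and GAAA, was searched on both strands with overlaps counted. It was present in 12 of the 24 (50%), against 3.99% of all 27025 genes with such a window. The 12 genes were Bst2, Ddx58, Eif2ak2, Ifih1, Ifit1, Ifit3, Isg15, Oas1a, Oas3, Rsad2, Stat2 and Trim30a. Some windows lay partly or wholly inside the GENCODE model of the gene, so a missing match need not mean a missing element. Among genes without a match, all 250 upstream bases were inside for Irf9, 124 for Dtx3l, 57 for Irf7 and 50 for Ifi44. Also wholly inside was 1 window each of Ifit2, which had no match, and Trim30a, which had one. The gamma-activated sequence TTCNNNGAA was in 5 of the 24 (20.8%), against 9.55% of all genes. The 4 windows below are shown because they belong to genes the results turn on. Ifit3 and Oasl1 are members with a changed level in fat, Rsad2 had the smallest p-value in the tumours, and Isg15 was added after its promoter was seen, as the window with the most matches. Each run is the 250 bases upstream of the gene start, read 5′ to 3′ on the strand of the gene, with matches to the core in capitals. A match on the opposite strand reads TTTC, any 2 bases and TTTC here. No window is shown for Ifi44 or Irf9, because 50 and 250 of their 250 upstream bases lie inside the GENCODE model of the gene.
Ifit3 (chr19:34583279-34583528, plus strand): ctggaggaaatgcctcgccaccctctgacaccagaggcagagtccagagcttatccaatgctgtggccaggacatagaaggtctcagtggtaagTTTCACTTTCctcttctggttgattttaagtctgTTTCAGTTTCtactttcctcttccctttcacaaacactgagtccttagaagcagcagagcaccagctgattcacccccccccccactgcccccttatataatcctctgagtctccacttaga
Isg15 (chr4:156200819-156201068, minus strand): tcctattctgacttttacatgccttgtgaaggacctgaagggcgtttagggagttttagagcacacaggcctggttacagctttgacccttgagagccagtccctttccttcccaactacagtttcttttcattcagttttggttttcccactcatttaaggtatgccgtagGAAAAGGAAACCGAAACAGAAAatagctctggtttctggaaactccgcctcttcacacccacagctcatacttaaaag
Rsad2 (chr12:26456453-26456702, minus strand): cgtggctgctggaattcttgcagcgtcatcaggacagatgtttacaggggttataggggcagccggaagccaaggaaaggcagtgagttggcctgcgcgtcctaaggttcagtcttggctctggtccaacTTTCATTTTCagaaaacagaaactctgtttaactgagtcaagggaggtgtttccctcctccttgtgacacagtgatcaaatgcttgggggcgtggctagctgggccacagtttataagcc
Oasl1 (chr5:114922990-114923239, plus strand): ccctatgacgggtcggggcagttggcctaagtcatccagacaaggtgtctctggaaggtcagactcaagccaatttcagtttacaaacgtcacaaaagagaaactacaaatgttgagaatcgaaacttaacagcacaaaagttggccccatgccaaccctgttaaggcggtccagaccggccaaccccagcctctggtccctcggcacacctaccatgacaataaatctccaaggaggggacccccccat
Ifit3 had 2 matches, whose first bases lay 156 and 122 bases before the gene start. Isg15 had 3 overlapping matches in a row, starting 78, 72 and 66 bases before it. Rsad2 had 1 match, 120 bases before the start. The Oasl1 window held no match to these letters.

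**Figure D1:**
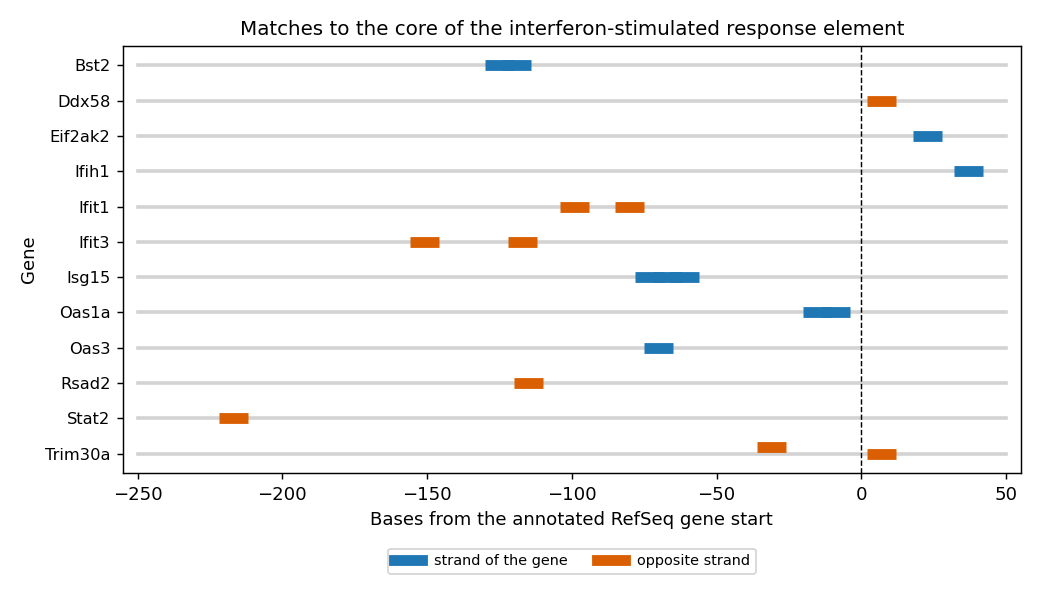
Matches to the core of the response element in the promoter windows of the 12 genes that had any. The horizontal axis is the distance in bases from the RefSeq gene start (dashed line), each grey line is 1 gene, and the colour gives the strand of the match. The 19 matches began between 222 bases before and 32 bases after the start, and the 2 gene starts of Trim30a are drawn at slightly different heights.

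In genomic position (GENCODE M21, GRCm38) the 34 genes fell on 14 chromosomes, and several stood in clusters. Ifit1, Ifit2 and Ifit3 lie side by side on chromosome 19, with Ifit3 at chr19:34583531-34588731. That is 5.2 Mb from Cd274, which encodes PD-L1 and is at chr19:29367455-29388095. The 5 Oas and Oasl genes are on chromosome 5, and 6 members, among them Mx1, Mx2, Parp9 and Dtx3l, are on chromosome 16. Parp9 and Dtx3l face away from each other with starts 681 bases apart and gene models that overlap by 682 bases. The libraries were made with a strand-specific kit, but whether counting used the strand is not given in the sources used here. Values of such overlapping pairs may therefore include reads of the partner. Close sequence relatives such as Oas1a, Ifit3, Trim30a and Ifi27l2a may instead miss reads in the tumours, where multiply placed reads were not assigned to genes. How such reads were handled in fat is not known.

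Gene-assigned reads ran from 22834259 to 34706555 per tumour library and from 29362788 to 41534662 per fat library. Fat values are the authors' normalised values, in which 1 read was worth 0.860 to 1.10, and tumour values are reads scaled by TMM. Cd274 was not lower in fat from KO mice. Its 4 KO values were 548, 521, 564 and 543, and its 3 WT values were 504, 739 and 528 (log2 difference -0.10, limma adjusted p = 0.66). In the tumours it was 2414, 2147 and 1568 in KO hosts against 1391, 1688 and 1672 in WT hosts (edgeR adjusted p = 0.717). Which bases were deleted is not given in the sources used here, so reads over the whole gene may check nothing. KO and WT below mean the libraries so labelled, and every direction rests on those labels. The fat had the marks of its tissue but not in equal measure. All 9 adipocyte markers were lower in KO fat (summed value 266269 to 416866, against 865559 to 888251 in WT). Of 11 macrophage markers, 10 were higher (227363 to 340332, against 43647 to 120562). All 6 endothelial markers were lower (17026 to 29800.4, against 38698 to 53142), as were 4 of 6 mesothelial markers (2613 to 4820.3, against 4626 to 8696, which overlap). Of 5 fibroblast markers, 2 were higher and 0 lower (365210 to 512567, against 177623 to 341895). The tumours expressed Krt8 at 8441 to 10313, whereas Adipoq was at or below 6.51 in every library. In bulk tissue, fewer cells of a type and less RNA per cell cannot be told apart.

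In visceral fat the interferon-stimulated genes did not move together between KO and WT mice. Ifi27l2a, Ifit3, Parp9 and Ifi44 fell in KO fat and Oasl1 rose, at a limma adjusted p under 0.05. The other 29 did not pass. Those 5 are 14.7% of the 34, against 34.2% of all 14455 genes tested that passed in either direction (16.8% higher and 17.4% lower). The median log2 difference over the 34 was -0.13, beside -0.00050 over all genes tested, with 20 members below 0 and 14 above (50% of all genes were below 0). At an unadjusted p under 0.05 there were 5 members higher and 8 lower. On the lower side that is 23.5% of the members, at the level of all genes (23.1%), and on the higher side all genes stood at 22.3%. The 2 groups of libraries did not overlap for 5 members on the higher side and 5 on the lower side, where the background was 21.6% and 22.1%. Macrophage, adipocyte, endothelial, mesothelial and fibroblast markers differed in the same libraries, and the part of those markers in the members' values was not tested.

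**Figure D2:**
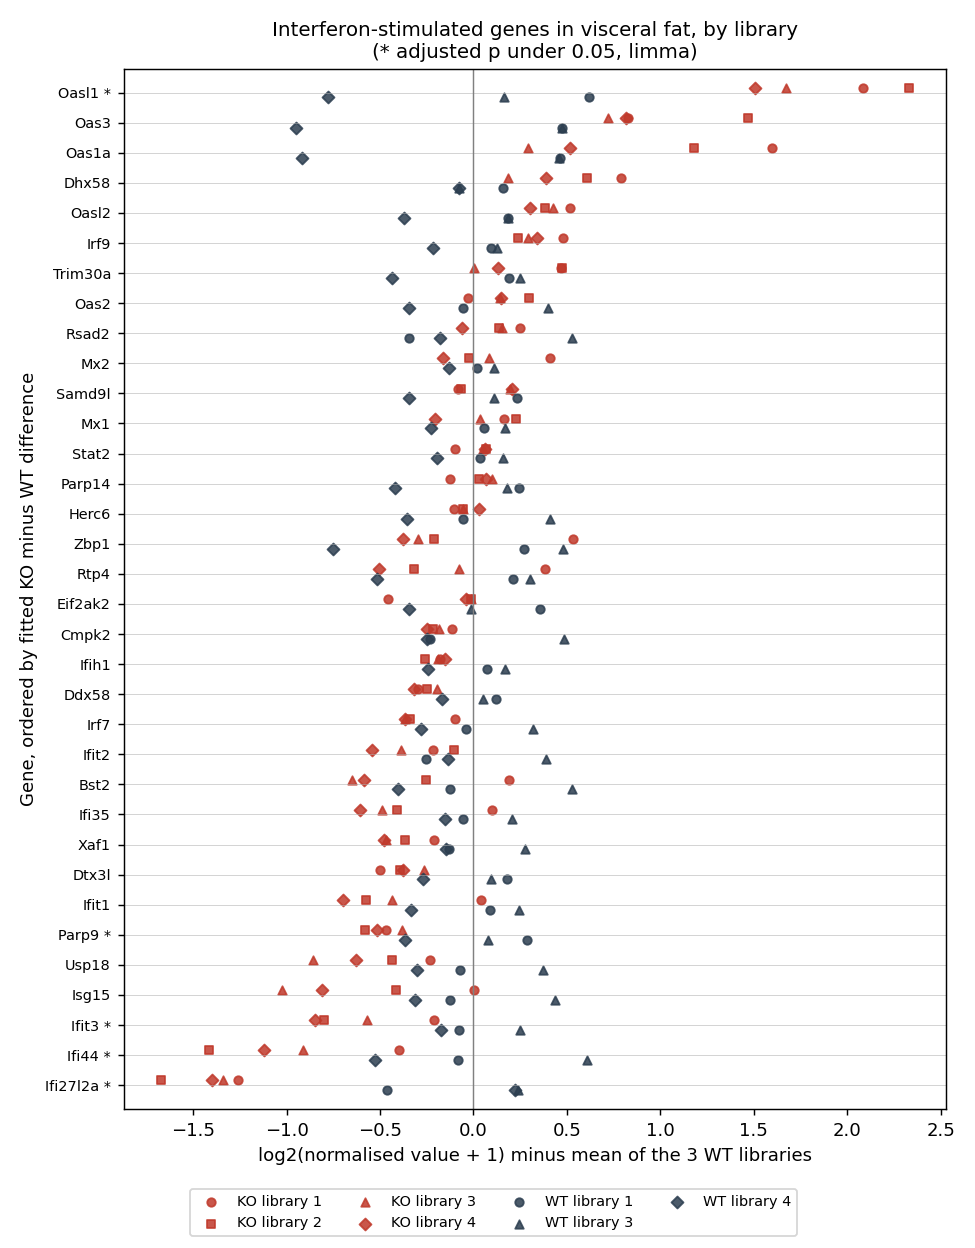
Every member in every visceral fat library, as log2(normalised value + 1) minus the mean of the 3 WT libraries. Red symbols are KO and dark symbols WT, 1 symbol shape per library number, and an asterisk marks a limma adjusted p under 0.05. WT library 4 was the lowest of its group for 30 of the 34 genes and WT library 3 the highest for 24, and red and dark symbols separate for 10 of the 34, 5 in each direction.

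The largest fall was that of Ifi27l2a, a small membrane protein of the ISG12 family, induced strongly by interferon. Its normalised values in KO fat were 13922, 10443, 13137 and 12641, and in WT fat 24138, 39264 and 38883. Every KO library was below every WT library, and the lowest WT library, number 1, was still well above the highest KO one. The fitted level in KO fat was 0.375 of that in WT (95% interval 0.27 to 0.52, log2 difference -1.42 ± 0.21 SE). The limma adjusted p was 0.00212, and the exact two-sided permutation p was 0.0286, the smallest that the 35 relabellings can give. Ifi27l2a kept its call in each of the 7 fits that left out 1 library. Per kilobase of exon it was the most abundant member in fat, at 73640 in WT and 27075 in KO, whereas the next, Bst2, a membrane protein that tethers budding virus, stood at 2039 and 1611.

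Oasl1, an OAS-like protein without enzymatic activity that represses translation of Irf7, went the opposite way. Its values in KO fat were 748, 888, 562 and 502, and in WT fat 270.1, 197 and 102. The groups did not overlap, and WT library 4 was the lowest. The KO level was 3.73 times the WT level (95% interval 2.19 to 6.33, log2 difference 1.90 ± 0.33 SE, limma adjusted p = 0.00401, exact permutation p = 0.0286). It too was called in all 7 fits that left out a library. Irf7 itself, the transcription factor that drives most interferon alpha genes, had values of 916 to 1103 in KO and 973 to 1475 in WT (log2 difference -0.29, adjusted p = 0.18).

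Ifit3, of the IFIT family, had values of 646, 428, 504 and 415 in KO fat and 709.7, 887 and 663 in WT. The groups did not overlap, but the highest KO library, number 1, was just below the lowest WT library, number 4. The fitted level in KO fat was 0.657 of WT (95% interval 0.489 to 0.883, adjusted p = 0.0357). Ifi44, a cytoplasmic interferon-induced protein, had values of 222, 109, 155 and 134 in KO and 276, 446 and 203 in WT. Here KO library 1 was above WT library 4, so the groups overlapped. The fitted ratio was 0.514 (95% interval 0.31 to 0.85, adjusted p = 0.0465, exact permutation p = 0.0857). Both calls depended on which libraries were included. Ifit3 and Ifi44 each stayed called without KO library 1 or without WT library 4, and lost the call without any of the other 5 libraries, with adjusted p up to 0.143 for Ifit3 and 0.172 for Ifi44.

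**Figure D3:**
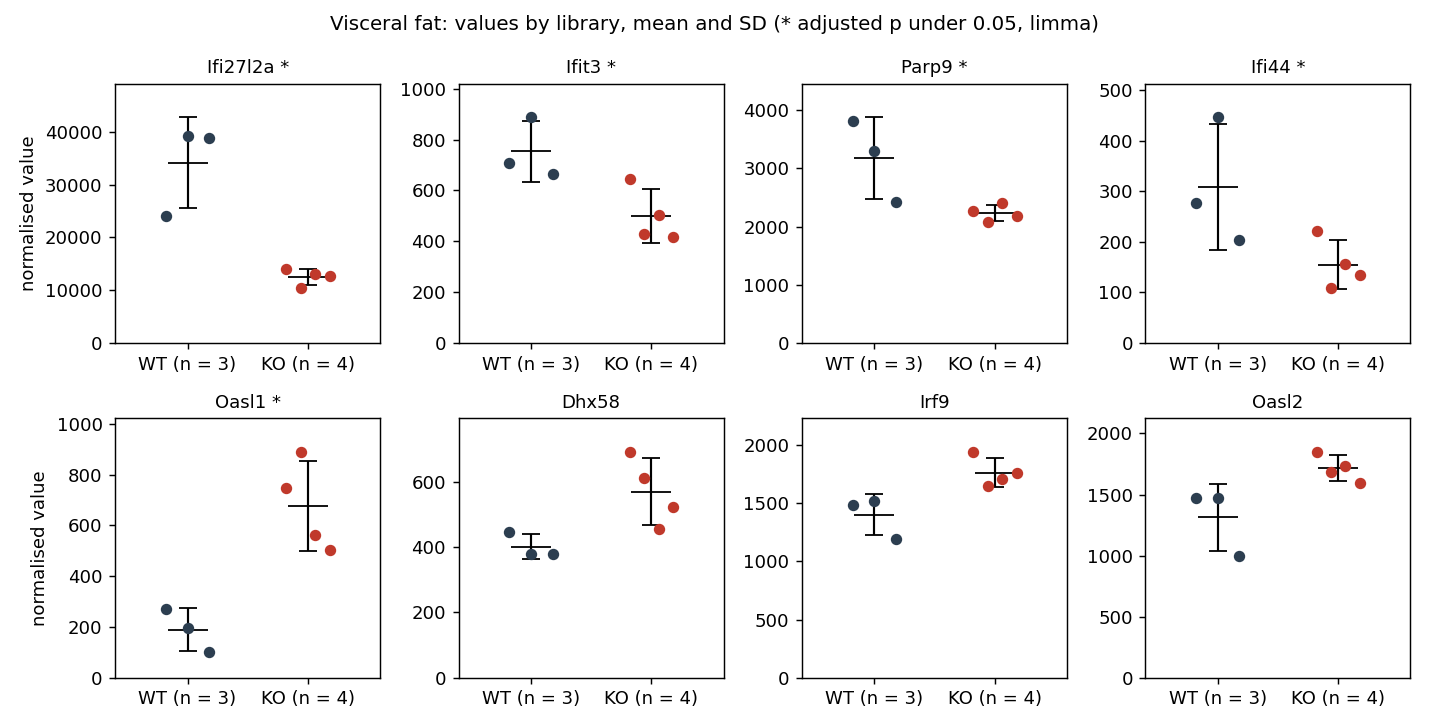
Normalised values of 8 members in visceral fat, 1 point per library, with the mean (long bar) and SD (whiskers) of the 3 WT and 4 KO libraries, and every vertical axis starting at 0. The top row shows the 4 members that fell, among which Ifi27l2a has the widest gap, and the bottom row shows Oasl1, which rose, with the 3 members next to it on the higher side, which did not pass.

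Among the sensors, Ddx58 (RIG-I) and Ifih1 (MDA5) recognise viral RNA, Dhx58 (LGP2) modulates both, and Zbp1 binds Z-form nucleic acid. None of the 4 passed in fat. Dhx58 values in KO fat were 689.9, 609.5, 454 and 523, and in WT fat 445, 378 and 378. The groups did not overlap, with KO library 3 close to WT library 1, and the log2 difference of 0.49 ± 0.17 SE had an adjusted p of 0.0518. Dhx58 was called without KO library 3 (adjusted p = 0.0286) and without WT library 1 (0.0489), and with the edgeR test on recovered reads (0.0459). Its gene model overlaps that of the antisense gene Dhx58os. Ddx58 ran from 1534 to 1674 in KO and from 1702 to 2081 in WT, again without overlap (log2 difference -0.27, adjusted p = 0.0898). Ifih1 (-0.19) and Zbp1 (-0.09) had overlapping groups.

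Of the 3 transcription factors, STAT2 and IRF9 form the complex that reads the response element, and IRF7 extends the response. Irf9 values in KO fat were 1938, 1645, 1707 and 1763, and in WT fat 1484, 1520.2 and 1196. All 4 KO libraries were above all 3 WT libraries, by a log2 difference of 0.34 ± 0.12 SE that did not pass (limma adjusted p = 0.0631, exact permutation p = 0.0286). Stat2 was level, at 1922 to 2151 in KO and 1796 to 2297 in WT (log2 difference 0.02 ± 0.12 SE).

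Of the 9 RNA-binding effectors, Oasl1 and Ifit3 passed in fat. The OAS enzymes make short oligoadenylates, which activate RNase L. All 5 Oas and Oasl members had fitted differences above 0 in fat, whereas Ifit1, Ifit2 and Ifit3 were all below 0. The difference between the families was not tested. Oasl2 values in KO fat were 1847, 1685, 1736 and 1596, and in WT fat 1468, 1471 and 999. The groups did not overlap, with WT library 4 far below its group, and the log2 difference was 0.41 ± 0.15 SE (adjusted p = 0.0723). Oas3 ran from 215 to 362 in KO and from 67 to 182 in WT without overlap (0.96, adjusted p = 0.0762), while Oas1a (0.90) and Oas2 (0.14) overlapped. Without WT library 4 these differences were smaller: Oas1a was at 0.44, Oas3 at 0.48, Oasl2 at 0.22 and Oas2 at -0.03, while Oasl1 was at 1.51. Ifit1 had a log2 difference of -0.42 and passed only without KO library 1 (adjusted p = 0.0475), and Ifit2 was at -0.31. Eif2ak2 (PKR), the kinase that halts translation on double-stranded RNA, was at -0.13 (adjusted p = 0.617).

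Isg15, the ubiquitin-like modifier, and Usp18, which removes it and also blocks the receptor, had similar differences in fat. Isg15 ran from 198 to 404 in KO and from 325 to 546 in WT (log2 difference -0.56, adjusted p = 0.152), and Usp18 from 136 to 211 against 201 to 322 (-0.54, adjusted p = 0.094). In both, KO library 1 was the highest of its group and reached into the WT range. Herc6, the mouse ligase for ISG15, was at -0.05.

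Parp9 and Dtx3l encode a complex of an ADP-ribosyltransferase-like protein and a ubiquitin ligase. Parp9 values in KO fat were 2258, 2083, 2396 and 2185, and in WT fat 3809, 3289.9 and 2424. The groups did not overlap, but WT library 4 lay just above the highest KO library. The fitted KO level was 0.714 of WT (95% interval 0.557 to 0.915, limma adjusted p = 0.042, exact permutation p = 0.0286). The call held only without WT library 4 (adjusted p = 0.0074) and was lost in the other 6 fits that left out a library. Dtx3l, the overlapping neighbour, had a log2 difference of -0.38 (adjusted p = 0.0534), and passed without WT library 4 (adjusted p = 0.0158). Parp14, another ADP-ribosyltransferase nearby, was at 0.02.

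The 12 other effectors ranged in fat from Ifi27l2a to Trim30a (0.27), an inhibitor of Toll-like receptor signalling. Rsad2 (viperin), which makes a chain-terminating nucleotide, was at 0.12, and its neighbour Cmpk2, a mitochondrial nucleotide kinase, at -0.19. Mx1 and Mx2, genes of the dynamin-like GTPase family, were at 0.06 and 0.08, with Mx2 the least abundant by value, at 69.5 to 104. Samd9l was at 0.06, Rtp4 at -0.13, Bst2 at -0.33 and Ifi35 at -0.35, all with overlapping groups. Ifi35 passed only without KO library 1 (adjusted p = 0.0218). Xaf1, an apoptosis-linked protein, ran from 458 to 551 in KO and from 575 to 772 in WT without overlap (-0.38, adjusted p = 0.0799).

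The WT libraries differed among themselves. WT library 4 had the lowest value of all 7 fat libraries in 15 members and WT library 3 the highest in 17. The median log2 distance of the members from the WT mean was 0.25 in WT library 3 and -0.31 in WT library 4, and it ran from -0.23 to -0.06 in the KO libraries. WT library 4 also had the lowest summed macrophage markers (43647) and the highest summed mammary epithelial markers, 895 against 203 to 405 in the other 6; Epcam, singled out after its values were seen, was at 142 there and at 2.16 to 7.26 elsewhere. The part of either in the members' values was not tested. Without WT library 4, 1 member was called higher and 6 lower, the latter being Ifi27l2a, Ifit3, Ifi44, Parp9, Ddx58 and Dtx3l, and the median moved to -0.32. Without WT library 3, Ifi27l2a was the only member called lower, and the median was 0.04.

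Upstream of these genes, reads assigned to the interferons themselves were near the limit of detection in fat. Of 15 interferon alpha, beta, kappa, epsilon and zeta genes, 12 were at 0 in all 7 libraries, and the summed value was at most 3.31 in any library. None could be tested. Multiply placed reads were not assigned to genes in the tumours, and their share in fat is not known. Values at 0 may therefore miss reads of genes with close copies. Of 10 receptor, kinase and regulator genes, 4 were higher in KO fat and 1 was lower (all genes 16.8% and 17.4%). Ifnar1, a chain of the receptor, was 4545 to 5390 in KO and 2650 to 3518 in WT (log2 difference 0.66, limma adjusted p = 0.00547). Ptpn11, a phosphatase that acts on this pathway, was the lower one (log2 difference -0.88, adjusted p = 0.0024). The other 3 higher genes were the kinase Tyk2 and the leukocyte phosphatases Ptprc and Ptpn6. Ptpn6 is named after its values were seen.

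Of 22 genes that sense nucleic acid or relay that signal to interferon, 12 were higher in KO fat and none lower, where 16.8% of all genes were called higher and 17.4% lower. With no adjustment of p, 14 were higher and 0 lower under 0.05 (all genes 22.3% and 23.1%). Their median log2 difference was 0.62, beside -0.00050 over all genes. The 3 of smallest p were Ikbke, a kinase that activates IRF3 and IRF7 (log2 difference 1.65, adjusted p = 0.000983), Tlr7, an endosomal RNA receptor (2.04, 0.00269), and Unc93b1, the chaperone of such receptors (1.41, 0.00348). These genes are also expressed by macrophages, whose marker sum did not overlap between groups, and the part of that in the list was not tested. Of 55 other interferon-stimulated genes, 11 were higher and 5 lower, against the same 16.8% and 17.4% of all genes. The higher ones included Aim2, a DNA sensor (1.53), and Ifi205, of the same family (1.25). The lower ones included Tdrd7, a Tudor-domain protein (-0.78), Ly6e, a surface protein (-0.91), and Isg20, an exonuclease (-0.78). Their median log2 difference was 0.05, beside -0.13 for the 34 members.

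In E0771 tumours none of the 34 passed, and neither did any other gene. edgeR called 0 of the 13109 genes tested (0%). DESeq2 called 47 higher and 12 lower over all genes but no member, and limma-voom called none. At an unadjusted p under 0.05, edgeR gave 6 members lower and 0 higher, where 3.11% of all genes were lower and 3.79% higher. Fitted differences were below 0 for 25 of the 34, against 49.1% of all genes, and their median was -0.14, beside 0.0037. The groups overlapped for all 34 members, whereas 5.68% of all genes did not overlap on the higher side and 4.93% on the lower side.

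The 8 members of smallest p in the tumours were all lower on average in KO hosts, and all overlapped. For Rsad2 the TMM-scaled reads were 5344, 3338 and 3541 in KO hosts and 7888, 8601 and 3614 in WT hosts. WT libraries 1 and 2 were high and WT library 3 sat among the KO libraries. The log2 difference was -0.72 ± 0.28 SE (edgeR adjusted p = 0.676), and the exact permutation p was 0.2, where 3 against 3 cannot go below 0.1.

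Mx1 was likewise high in WT libraries 1 and 2, with 2248, 1506 and 1533 in KO hosts and 3274, 3865 and 1499 in WT hosts (log2 difference -0.71). Ifit3 was 1934, 1552 and 1374 in KO hosts and 3272, 3024 and 1364 in WT hosts (-0.66). Isg15 was 4462, 3329 and 3154 in KO hosts and 6747, 6874 and 3098 in WT hosts (-0.61). In these 3 genes WT library 3 was the lowest of all 6 libraries, and KO library 1 was the highest of its group. Ifi27l2a was 5539, 3549.8 and 4177 in KO hosts and 7886, 9743 and 3605 in WT hosts (-0.68). Irf7 was 12332, 6709.7 and 8085 in KO hosts and 15759, 15318 and 8489 in WT hosts (-0.54). These 2 genes differ from the 3 above in that KO library 2, not WT library 3, was lowest. Mx2 was 419, 266 and 291 in KO hosts and 570.3, 619.6 and 273 in WT hosts (-0.58). Usp18 was 5302, 2832 and 3088 in KO hosts and 6131, 8059 and 3043 in WT hosts (-0.62). Adjusted p for these 7 ran from 0.692 to 0.755.

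**Figure D4:**
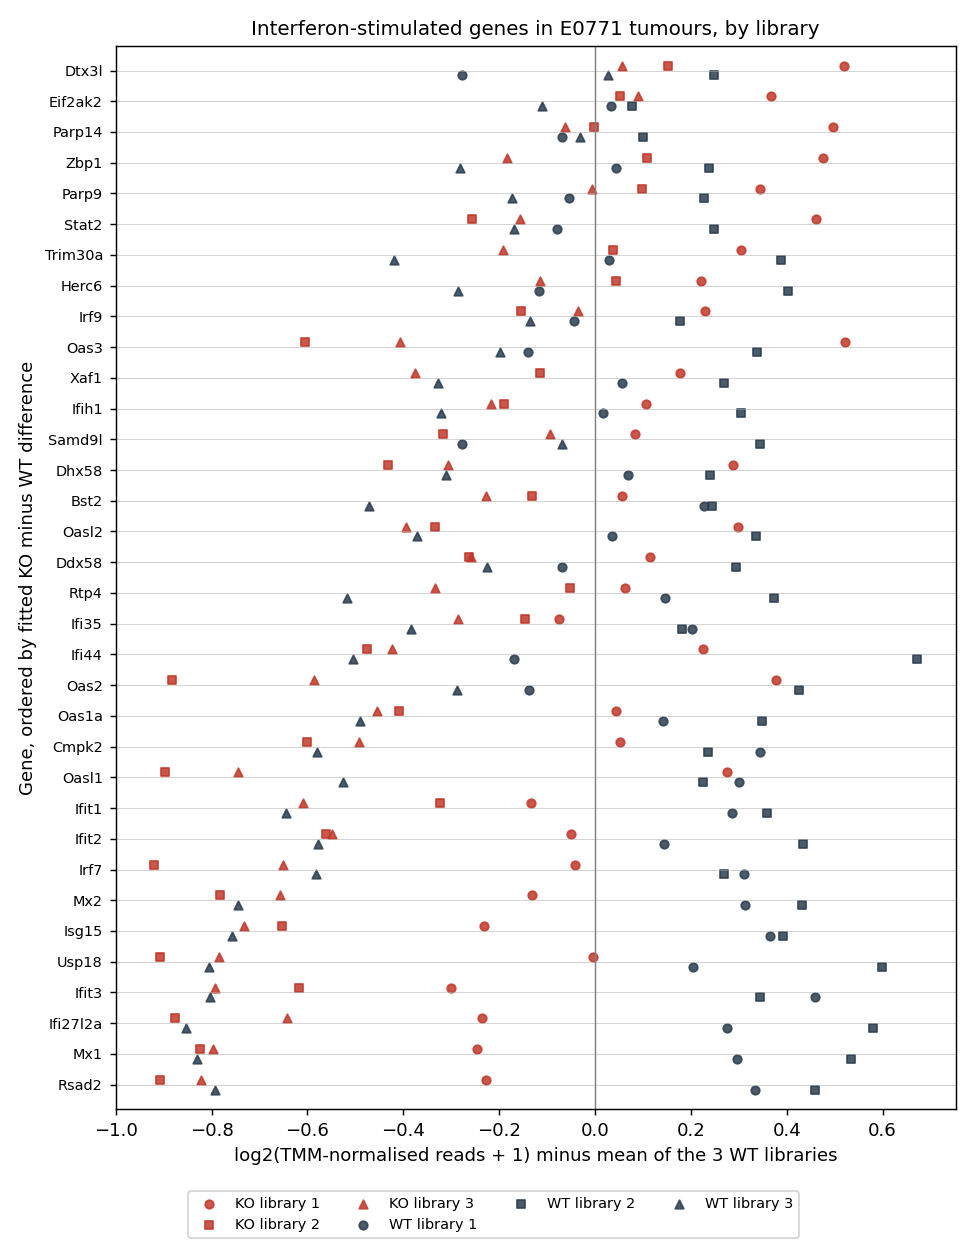
Every member in every E0771 tumour library, as log2(TMM-scaled reads + 1) minus the mean of the 3 libraries from WT hosts. Red symbols are tumours of KO hosts and dark symbols of WT hosts. KO library 1 was the highest of its group for all 34 genes, WT library 2 the highest of its group for 29, and WT library 3 the lowest of its group for 31, so that both groups spread across the axis.

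By role, the 9 RNA-binding effectors had a median log2 difference of -0.30 in the tumours, with 8 of 9 below 0 and Eif2ak2 (0.18) above. The 12 other effectors had a median of -0.23, with 11 below 0 and Trim30a (0.03) above. The sensors ran from -0.14 (Ddx58) to 0.14 (Zbp1). Stat2 and Irf9 were at 0.04 and 0.02. Parp9, Parp14 and Dtx3l were all above 0, at 0.14, 0.16 and 0.24. The most abundant member per kilobase of exon in the tumours was Bst2, at 21149 with WT and 19304 with KO hosts, followed by Ifi27l2a and Isg15.

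Single libraries moved the tumour values. Without WT library 3, Ifit3 was the only member called (log2 difference -0.96, edgeR adjusted p = 0.0484), and with any other library left out no member was. The median over the 34 ranged from -0.40 to 0.01 over those 6 fits. Monocyte markers (Ly6c2, Ccr2 and Plac8) summed to 15173 and 17270 in WT libraries 1 and 2, to 8165 in WT library 3 and to 8387 to 9641 in KO hosts. The markers did not move together. Ly6c2 (log2 difference -0.89) and Plac8 (-0.83) were lower on average with KO hosts, whereas Ccr2 was at 0.12. Ccr2 was 2531, 2807 and 2657 in WT libraries 1, 2 and 3, and 2630 to 3236 in KO hosts. Markers of T and NK cells gave sums of 8075 to 14293 with KO hosts, against 6703 to 7721. KO library 2 had the lowest value of all 6 libraries in 14 members. Its neutrophil markers, singled out after their values were seen, summed to 3197, against 168 to 714 in the other tumour libraries. The part of these markers in the members' values was not tested. The 3 monocyte markers had a median log2 difference of -0.83, and none passed.

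Other lists gave no call by edgeR in the tumours either. Interferon beta (Ifnb1) had 5.58 to 13.8 scaled reads in the tumours of WT hosts and 3.37 to 8.43 in those of KO hosts. These levels were near the limit of detection. Neither Ifnb1 nor any other interferon gene of that list passed the filter, so none was tested. Of the 55 other interferon-stimulated genes, 7 had an unadjusted edgeR p under 0.05 on the higher side and 2 on the lower side. Over all genes the shares were 3.79% and 3.11%. Those 3 of smallest p, which are also known targets of interferon gamma, were on the higher side: Iigp1, an immunity-related GTPase, at 5748 to 7210.4 with KO hosts against 2261 to 3665 (log2 difference 1.09), the chemokine Cxcl9 (0.98) and the guanylate-binding protein Gbp2 (0.78), each with an adjusted p of 0.204. Their groups did not overlap. Because these 3 were picked by smallest p, that follows largely from the choice and sets up no contrast with the 34 members.

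**Figure D5:**
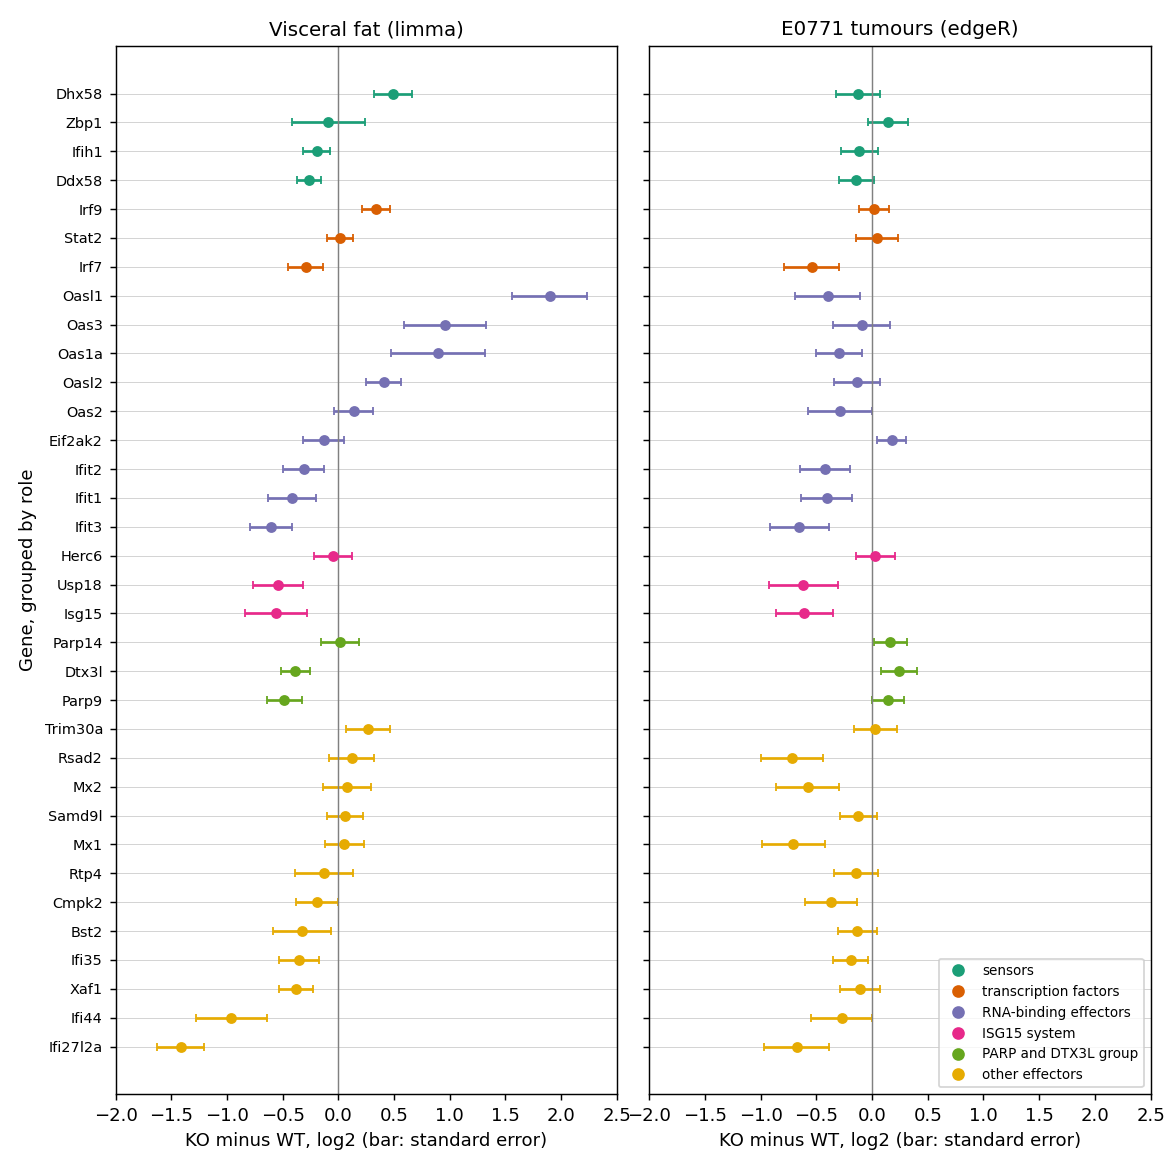
Fitted KO minus WT log2 difference of each member in visceral fat (left, limma, 3 WT and 4 KO libraries) and in E0771 tumours (right, edgeR, 3 and 3), grouped by role, with bars of 1 standard error. Oasl1 stands at 1.90 in fat and -0.40 in the tumours, and the Ifit genes lie left of 0 in both.

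With the 2 fits set side by side, 15 members were below 0 in both tissues, 4 were above 0 in both and 15 had opposite signs. Ifit3 was at -0.61 in fat and -0.66 in the tumours, and Isg15 at -0.56 and -0.61. The difference between tissues was tested for each gene with 700 relabellings within tissue, on log2 values with a pseudocount of 1, which give a smallest possible p of 0.00143. At an unadjusted permutation p under 0.05 there were 3 members, against 24.3% of the 12529 genes tested in both, and no gene passed after adjustment (0%). These 3 were Oasl1 (1.90 in fat and -0.46 in the tumours on this scale, permutation p = 0.00857, adjusted p = 0.125), Parp9 (permutation p = 0.0243) and Dtx3l (permutation p = 0.0257). The tissues were normalised separately and differ in the source of their cells, so no level was compared between them.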

How the data were processed

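Polyadenylated RNA libraries were made with the Illumina TruSeq stranded kit, per the labels' protocols. The submitters' processing notes name CASAVA, TopHat, DESeq2 and mm10, with no role or version. The tumour table holds read counts deposited by the authors, and the fat table holds the authors' normalised signal, a count divided by a size factor. All 117220 fat values above 0 checked were whole multiples of 1 read within 0.001, so reads were recovered for an added test. Tumour lines that name no gene were 66.7 to 72.2% of entries, mostly multiply placed reads, and were left out. WT fat columns 1, 3 and 4 were taken as the WT group, whose labels number them 1 to 3. Replicates of every group differed by more than sampling noise.

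Tumours were tested with edgeR 4.0.16 (quasi-likelihood, TMM, filterByExpr, R 4.3.3), where the standard error is the size of the log2 difference over the square root of F. For fat, limma 3.58.1 was run with a mean-variance trend. Its input was log2(value + 1) of genes reaching 10 in at least 3 libraries, so fold changes are on that scale. P-values were adjusted by Benjamini-Hochberg over all genes tested, and a member was called at an adjusted p under 0.05. Exact permutation tests were two-sided on the difference of means. DESeq2 1.42.0, limma-voom, other scalings, filters and pseudocounts, and leaving out each library were alternatives. The test across tissues with a pseudocount of 10 was added after seeing the data and called 0 genes. The methods were tested on simulated data with 200 changed genes and a common dispersion. Of 2-fold changes, limma recovered 56.2% in fat and edgeR 84.1% in the tumours, while edgeR on fat reads recovered 40%. Of 4-fold changes, limma recovered 99.1% in fat and edgeR 100% in the tumours. False calls were 5.88% of calls for limma in fat, 4.69% for edgeR in the tumours and 9.52% for DESeq2. A member not called in fat may therefore still differ by 2-fold. The members and gene lists were chosen with earlier results of these data known. Values of every library are given for called members, the 3 next on the higher side in fat and the 8 of smallest p in the tumours, and up to 3 genes a direction of the other lists are named.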

Additional observations from a re-analysis of the deposited data

Results flagged for a closer look

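Within the 4 KO fat libraries, 5 members had 1 library far from the other 3, by Dixon's test at its 95% critical value; chance flags about 1 in 20 groups, and the groups of 3 were not tested. KO library 1 was apart in 4 of the 5. It had the highest Irf7, at 1103 against 916 to 933, and the highest Zbp1, at 772 against 409 to 459.6. It also had the lowest Stat2, at 1922 against 2130.0 to 2151, and the lowest Eif2ak2, at 1256 against 1674 to 1708. Oas3 was highest in KO library 2, at 362 against 215 to 232. KO library 1 had the highest value of its group in 19 of the 34 members and the lowest in 7.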

How the results depend on the processing

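In fat, Oasl1, Ifi27l2a and Ifit3 were called under all 8 other settings, which changed the pseudocount, the filter, the scaling or the test. Members called higher numbered 2 with the filter of 50 or more in at least 3 libraries and 2 with edgeR on recovered reads, where Dhx58 joined Oasl1. Members called lower numbered 2 in limma without its trend, which lost Ifi44 (adjusted p = 0.0588) and Parp9 (0.0645). With no filter Ifi44 was lost (adjusted p = 0.0572), and quantile normalisation added Ddx58 and Dtx3l, for 6 lower. Near 0, Parp14 changed sign with edgeR (-0.0034) and with quantile normalisation (-0.014), as did Stat2 with the latter (-0.015). The cause was not tested.

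Leaving out each fat library in turn gave 1 to 2 members called higher and 1 to 6 lower, and a median log2 difference of -0.32 to 0.036. Members whose sign changed in such a fit had ranges in log2 of Cmpk2 -0.32 to 0.052, Eif2ak2 -0.30 to 0.048, Herc6 -0.23 to 0.16, Mx1 -0.057 to 0.14, Mx2 -0.035 to 0.16, Oas2 -0.035 to 0.34, Parp14 -0.19 to 0.14, Rsad2 -0.052 to 0.38, Rtp4 -0.39 to 0.021, Samd9l -0.11 to 0.18, Stat2 -0.078 to 0.099 and Zbp1 -0.46 to 0.15. None of these was called. Leaving out each tumour library gave 0 to 1 members called lower, 0 higher and a median of -0.40 to 0.01, and the ranges of members that changed sign were Ddx58 -0.29 to 0.019, Dhx58 -0.39 to 0.0053, Herc6 -0.11 to 0.25, Ifi44 -0.55 to 0.14, Ifih1 -0.26 to 0.049, Irf9 -0.11 to 0.11, Oas3 -0.53 to 0.11, Oasl2 -0.40 to 0.046, Parp14 -0.042 to 0.27, Rtp4 -0.36 to 0.050, Samd9l -0.26 to 0.066, Stat2 -0.22 to 0.18, Trim30a -0.16 to 0.24, Xaf1 -0.27 to 0.036 and Zbp1 -0.052 to 0.29. None of these was called either.

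Under the other 7 tumour settings, 0 members were called, including the fit with the replicate block, which called 0 of the 34. Deviations of same-numbered WT and KO tumours correlated at -0.23, 0.01 and -0.22 over all genes, and at 0.04, -0.25 and 0.14 over the members. They were taken from the mean of each group of 3, which forces the correlations to balance. These values therefore cannot decide whether a shared number marks a pairing, and the labels do not say. Over all genes, edgeR with no filter called 21 higher and 1 lower in the tumours, and leaving out a library gave up to 10 higher and 11 lower. In fat, leaving out WT library 3 gave 1575 higher and 1490 lower. No paired analysis was possible because of the column numbers in fat, where WT columns 1, 3 and 4 do not match the labels' replicates 1 to 3. Depth limits little here, since the lowest member value was 67 in fat and 266 in the tumours, and the 3 or 4 libraries in a group limit the precision of every difference.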
